A study of Mus musculus with 7 samples.

Results

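The genes described here are the matrix receptors of mouse embryonic stem (ES) cells and of cells differentiated from them: integrin chains, syndecans, glypicans, dystroglycan (Dag1) and basal cell adhesion molecule (Bcam). They were taken from the count table by name and protein-coding biotype, as all symbols that begin with Itga or Itgb apart from Itgb1bp and Itgbl genes, Sdc1 to Sdc4, Gpc1 to Gpc6, Dag1 and Bcam. The table held 40 such genes among 43629. Of these, 36 had enough counts to be tested, and 25 reached a mean of 10 CPM (the usual normalised read count, scaled to a common library size) in 1 or more groups. The naming rule also takes in Itgb3bp, which encodes a kinetochore protein and no integrin chain, so that it has no ligand class. Counts of receptor genes below, and the captions, include Itgb3bp although it is not a receptor. Measurements are poly(A) RNA counts from 7 libraries in 3 groups, all derived from E14 ES cells of 129/Ola background. KO XEN cells carry a knockout of Ago2, an argonaute protein that carries microRNAs and can cut target RNAs. They were differentiated towards extra-embryonic endoderm, with 1 library of line C4 and 1 of line 5-3. WT XEN cells are wild-type cells after the same 5 days in RPMI and serum with retinoic acid (all-trans, 0.1 µM) plus activin A at 10 ng/mL, with libraries A and B. KO ES cells (KO ESC in the plots) are undifferentiated Ago2-knockout ES cells kept with LIF on gelatine, with 1 library of line C4 and libraries 5-3_1 and 5-3_2 of line 5-3. Wild-type ES cells are not used here, so that in WT XEN cells against KO ES cells genotype and differentiation cannot be told apart.

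Integrins are heterodimers of an alpha and a beta chain that bind matrix outside the cell and, through talin and its partners, actin inside it. The alpha chain largely sets the ligand: some bind laminins, the main sheet-forming proteins of basement membranes, some the RGD sequence of fibronectin and vitronectin, and some collagens. The beta1 chain pairs with most of these alpha chains, whereas alpha-v can also pair with beta3, beta5, beta6 or beta8. Syndecans are transmembrane and glypicans lipid-anchored proteins that carry heparan sulfate, through which they bind growth factors and matrix, and dystroglycan binds laminin through its own sugar chains. Extra-embryonic endoderm borders basement membranes in the embryo, and its parietal part lays down Reichert's membrane.

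The syndecan promoters are shown first, because 3 of the 4 syndecan transcripts were higher and Sdc4 was lower in KO XEN cells than in WT XEN cells. RefSeq (GRCm38.p6, the assembly of mm10) gave 32 promoters for 29 of the 40 genes. Sdc2, which was among the higher syndecans, had no promoter there and is not compared. The stretches run 5′ to 3′ on the strand of the gene up to the start or to the first annotated exon base, and capitals mark the GC box GGGCGG on either strand (CCGCCC on the other), the motif of SP-family factors. The Sdc1 stretch is chr12:8771146-8771322 on the plus strand, that of Sdc3 chr4:130792337-130792536 on the plus strand, and that of Sdc4 chr2:164443189-164443388 on the minus strand.
Sdc1: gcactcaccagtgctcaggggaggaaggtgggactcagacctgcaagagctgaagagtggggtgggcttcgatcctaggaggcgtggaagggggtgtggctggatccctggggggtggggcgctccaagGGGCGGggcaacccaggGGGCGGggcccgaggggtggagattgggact
Sdc3: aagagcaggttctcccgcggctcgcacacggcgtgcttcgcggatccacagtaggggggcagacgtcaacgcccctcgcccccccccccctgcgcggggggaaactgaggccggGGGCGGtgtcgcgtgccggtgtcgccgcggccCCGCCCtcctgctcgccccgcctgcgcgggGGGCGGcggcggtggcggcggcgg
Sdc4: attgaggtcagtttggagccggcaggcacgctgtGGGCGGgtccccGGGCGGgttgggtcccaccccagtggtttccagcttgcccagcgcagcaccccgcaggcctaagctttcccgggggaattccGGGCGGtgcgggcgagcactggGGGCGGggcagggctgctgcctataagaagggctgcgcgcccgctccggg
All 3 held GC boxes in the 250 bases before the start. The other motifs searched on both strands were GGAATG for TEAD factors, TGANTCA for AP-1, AGATAA for zinc finger factors of the GATA family, and the TATA box by its letters TATAAA. None of these 4 had a match in the 3 syndecan promoters, so that no overlap with the GC boxes arose. Over the 32 receptor promoters the GC box had a match in 16, and over all 32851 promoters of the table in 32.7%. TEAD matched 3 of the 32 and 12.6% of all, GATA 3 and 9.99%, AP-1 1 and 6.75%, and the TATA box 1 and 12.4%. GC boxes thus stood before Sdc4, which was lower, and before Sdc1 and Sdc3, which were higher. Their part in the syndecan levels was not tested.

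Total counts were 13941826 and 33389566 in KO XEN cells (C4 and 5-3), 36427340 and 38595537 in WT XEN cells, and between 39998808 and 48650113 in KO ES cells. The Ago2 transcript stood at 122 CPM in KO XEN C4 and 9.94 CPM in KO XEN 5-3, at 394 and 432 CPM in WT XEN cells, and in KO ES cells at 94.4 CPM in C4 and at 9.37 and 9.65 CPM in 5-3. It did not pass between KO XEN cells and WT XEN cells (-2.66 ± 1.36, adjusted p = 0.145). The libraries labelled C4 thus kept more Ago2 RNA than those of 5-3. Markers of other cell types moved with the groups. Of the 14 primitive and visceral endoderm markers 13 were lower and 0 higher in KO XEN cells than in WT XEN cells, and they summed to between 486 and 806 CPM in KO XEN cells, 15974 and 16426 in WT XEN cells, and 178 and 261 in KO ES cells. Of the 10 fibroblast and mesenchyme markers 8 were higher and 1 lower, and they summed to between 10277.5 and 12674 CPM in KO XEN cells, 790.3 and 1808 in WT XEN cells, and 33.3 and 34.6 in KO ES cells. The 8 parietal endoderm markers, of which 6 were lower and 0 higher, summed to between 8023 and 9452 CPM in KO XEN cells, 38962 and 62776 in WT XEN cells, and 577 and 619 in KO ES cells. The part of these markers in the receptor results was not tested, and in bulk RNA fewer cells of a type and less RNA per cell cannot be told apart. Mitochondrial transcripts held 0.781% to 0.979% of counts in KO XEN cells, 1.94% to 2.64% in WT XEN cells and 2.79% to 3.26% in KO ES cells.

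The question of KO XEN cells against WT XEN cells is which receptors differed between genotypes after the same differentiation. Among the 36 tested receptor genes, 19 passed as higher, 4 passed as lower and 13 passed in neither direction (edgeR quasi-likelihood test, Benjamini-Hochberg adjusted p below 0.05 over 18426 genes). Among all genes tested 22.3% were called higher and 23.9% lower, 46.2% in all. The median log2 fold change was 0.97 over the 36 genes and 0 over all genes. Syndecans 1 to 3, glypicans 1, 2 and 4, dystroglycan, Bcam, the beta1 chain and the beta chains 3, 5 and 8 were among those higher, and the 4 lower were Itgae, Itgb6, Sdc4 and Itgb3bp. Both KO XEN libraries lay above both WT XEN libraries for 24 of the 36 genes and below them for 6, while for all genes these shares were 38.2% and 38.3%. Each of the 4 lower calls was lost without WT XEN B and without KO XEN C4, fits that leave a single library in a group. Their direction held in all alternative fits. There the log2 fold change ran from -2.97 to -1.78 for Itgae and from -2.50 to -1.33 for Itgb6. It ran from -1.07 to -0.51 for Sdc4 and from -1.56 to -0.89 for Itgb3bp.

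**Figure D1:**
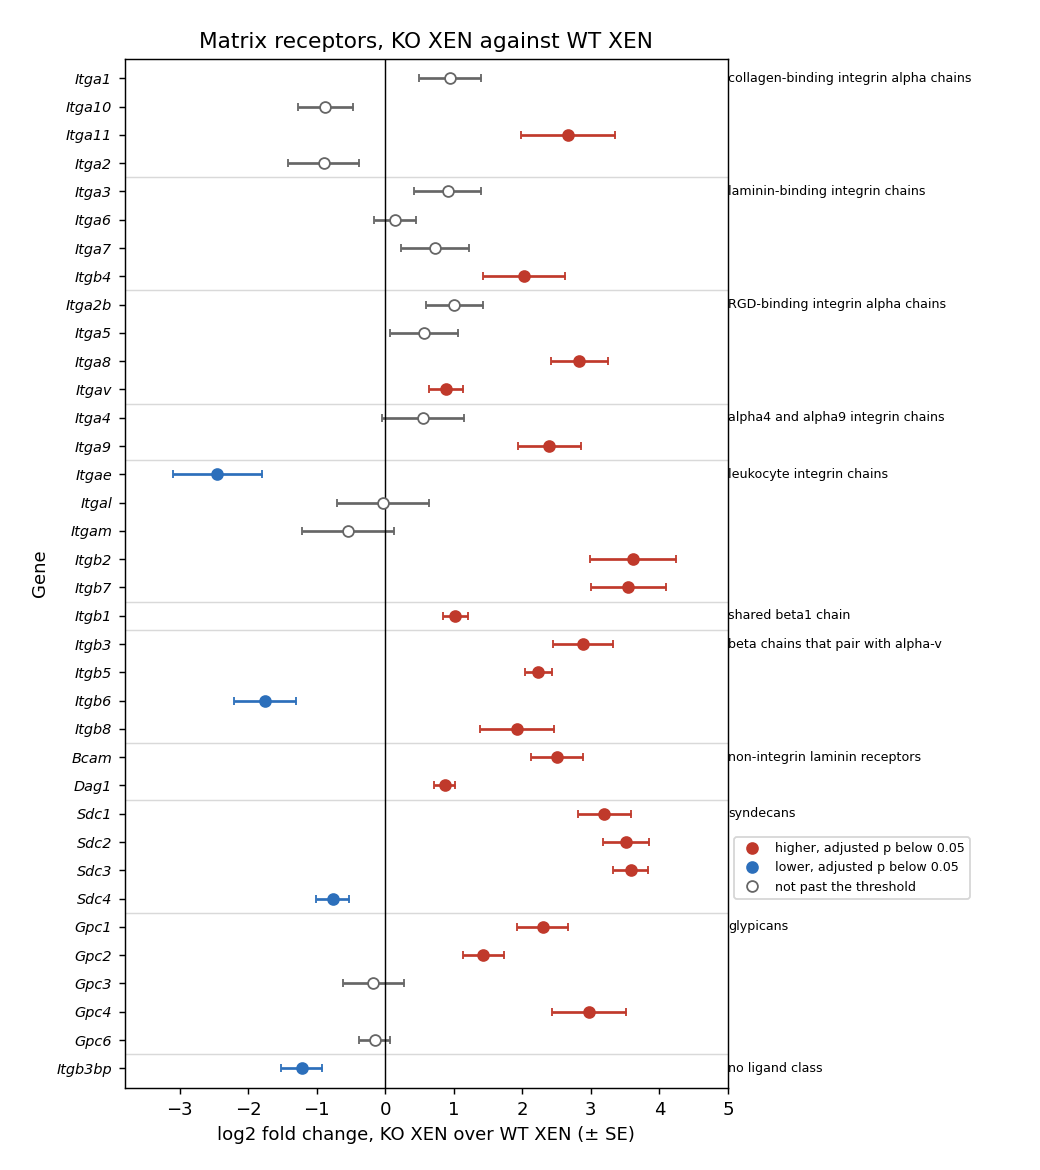
Log2 fold change of each tested receptor gene in KO XEN cells over WT XEN cells (x axis, 0 means equal levels, bars are ± SE), with the genes grouped by ligand class down the page. Filled red points are the 19 genes called higher, filled blue points the 4 called lower, and open points the 13 that did not pass. Sdc1, Sdc2 and Sdc3 lie above 3, and Sdc4 lies at -0.77.

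Against KO ES cells both differentiated groups had more of most receptors. In KO XEN cells 27 of the 36 genes were higher than in KO ES cells, where 34.8% of all genes were, and 6 were lower, where 34.3% were (69.0% of all genes were called in either direction). The median log2 fold change was 2.48 over the 36 genes and -0.08 over all genes. In WT XEN cells 19 were higher than in KO ES cells, where 32.2% of all genes were, and 8 were lower, where 30.3% were (62.5% in either direction), with medians of 0.74 and -0.03. Both libraries of KO XEN cells lay above all 3 of KO ES cells for 27 genes and below them for 6 (39.8% and 41.2% of all genes), and WT XEN cells lay above for 20 and below for 9 (38.4% and 37.7%). These comparisons share the KO ES libraries. The 8 lower calls in WT XEN cells fell to 5 without WT XEN B, without KO ES 5-3_1 or without KO ES 5-3_2.

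The 25 more abundant genes, whose mean reached 10 CPM in a group, follow by ligand class. Values per library are given for C4 and then 5-3 in KO XEN cells, for A and then B in WT XEN cells, and for C4, 5-3_1 and 5-3_2 in KO ES cells. Log2 fold changes are estimates ± SE from the same edgeR fit, and means are ± SD over n = 2 KO XEN, n = 2 WT XEN and n = 3 KO ES libraries. Genomic positions are those of GENCODE M21 on mm10.

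**Figure D2:**
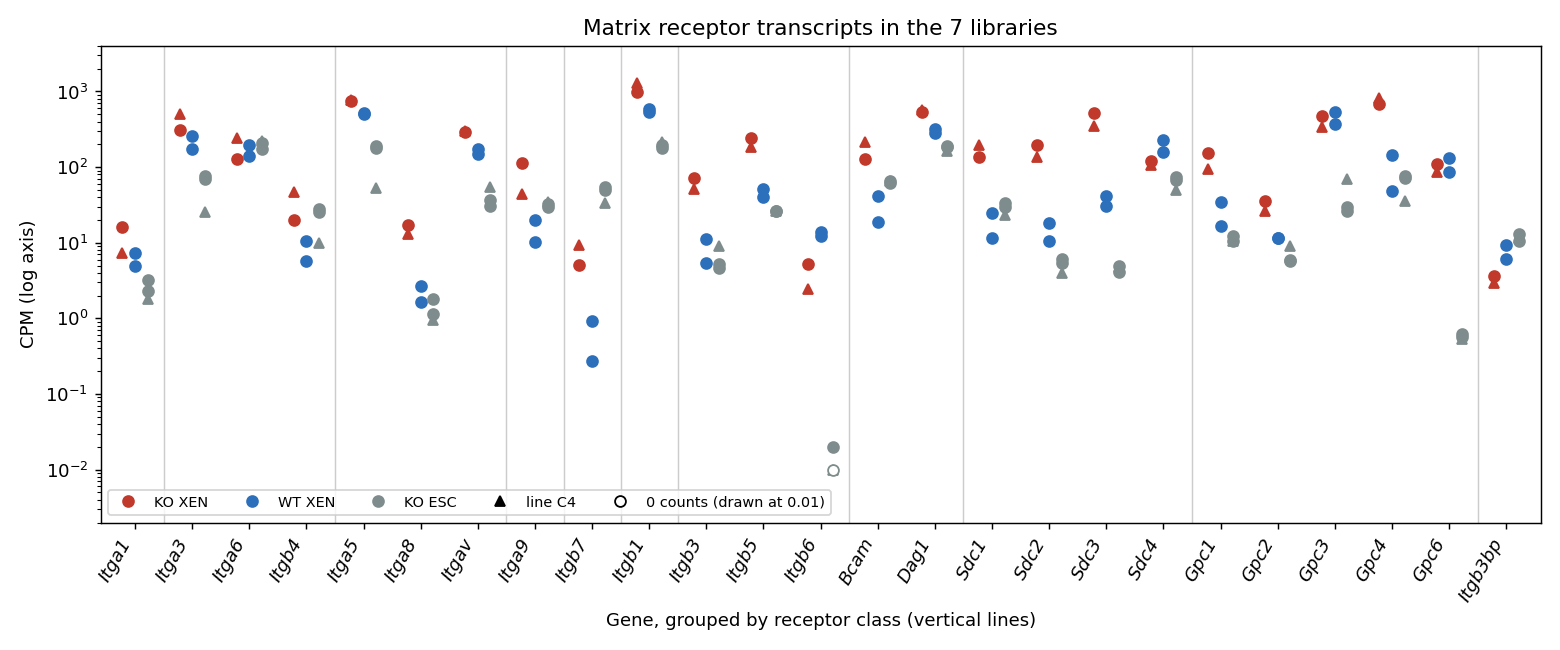
CPM on a log axis for each receptor gene whose mean reached 10 CPM in a group, with 1 point per library, red for KO XEN cells, blue for WT XEN cells and grey for KO ES cells. Triangles are the C4 libraries. Open symbols are Itgb6 in the KO ES libraries with 0 counts (C4 and 5-3_1), drawn at 0.01. For Sdc1, Sdc2, Sdc3 and Gpc4 both KO XEN libraries stand above all others, and for Itga6 the 3 groups overlap.

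Of the receptors for laminin, the integrin alpha3 chain was higher in both XEN groups than in KO ES cells, and the alpha6 chain passed the test in no comparison. Itga3 (chromosome 11, 95044474 to 95076801) encodes the alpha3 chain, which pairs with beta1 and binds laminin-511 and laminin-332. It stood at 501 and 305 CPM in KO XEN cells, 257 and 172 in WT XEN cells, and 25.9, 77.4 and 70.2 in KO ES cells. KO XEN cells and WT XEN cells each lay above all KO ES libraries. The log2 fold change was 2.80 ± 0.45 in KO XEN cells over KO ES cells (adjusted p = 0.000753) and 1.89 ± 0.44 in WT XEN cells over KO ES cells (adjusted p = 0.00627). Between KO XEN cells and WT XEN cells it was 0.91 ± 0.49, not past the threshold (adjusted p = 0.163), although the libraries did not overlap; without KO ES C4 in the shared fit it was called (0.84). Itga6, the alpha6 chain, a laminin receptor of ES cells and epithelia, had 242 and 128 CPM in KO XEN cells, 139.6 and 195 in WT XEN cells, and 223, 175 and 205 in KO ES cells. The 3 groups overlapped, and its log2 fold changes lay between -0.27 and 0.14 in the 3 comparisons. Itgb4 encodes the beta4 chain, which pairs only with alpha6 and anchors hemidesmosomes. It had 47.3 and 19.8 CPM in KO XEN cells, 10.7 and 5.75 in WT XEN cells, and 9.91, 27.5 and 25.7 in KO ES cells. Both KO XEN libraries lay above both WT XEN libraries and overlapped with KO ES cells. Itgb4 was higher in KO XEN cells than in WT XEN cells (2.02 ± 0.59, adjusted p = 0.0246), a call that was lost without KO XEN C4 (1.27) or without WT XEN B (1.64). In KO XEN cells over KO ES cells it was 0.67 ± 0.51 (adjusted p = 0.275), and -0.08 without KO XEN C4. In WT XEN cells over KO ES cells it was -1.36 ± 0.55 (adjusted p = 0.0593), and it was called there without KO ES C4 (-1.71, adjusted p = 0.0151) and without both C4 libraries (-1.70, adjusted p = 0.00801). Itga7, the laminin-binding chain of muscle, stayed between 1.23 and 3.12 CPM in all libraries and was called in no comparison.

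The 2 laminin receptors that are not integrins were both higher in KO XEN cells than in WT XEN cells. Dag1 encodes dystroglycan, cut into a laminin-binding and a membrane-spanning subunit. It had 562 and 531 CPM in KO XEN cells, 317 and 282 in WT XEN cells, and 163, 186 and 191 in KO ES cells. The 3 groups did not overlap and stood in that order. Its log2 fold change was 0.87 ± 0.15 in KO XEN cells over WT XEN cells (adjusted p = 0.00277), 1.60 ± 0.14 in KO XEN cells over KO ES cells and 0.74 ± 0.14 in WT XEN cells over KO ES cells (adjusted p = 2.51e-05 and 0.002). Bcam, the Lutheran glycoprotein, binds the laminin alpha5 chain. It had 213 and 128 CPM in KO XEN cells, 41.5 and 18.9 in WT XEN cells, and 64.9, 66.1 and 62.5 in KO ES cells. KO XEN cells lay above and WT XEN cells below the narrow range of KO ES cells. Bcam was higher in KO XEN cells than in WT XEN cells by 2.50 ± 0.38 (adjusted p = 0.00147; 3.09 without WT XEN A) and higher in KO XEN cells than in KO ES cells by 1.40 ± 0.32 (adjusted p = 0.00513). It was lower in WT XEN cells than in KO ES cells, by -1.10 ± 0.34 (adjusted p = 0.0229). The gain over KO ES cells did not pass without KO XEN C4 (1.00), and the loss in WT XEN cells did not pass without WT XEN B (-0.63) or without both C4 libraries (-1.09, adjusted p = 0.0517) and was -1.74 without WT XEN A.

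Among the RGD-binding alpha chains, alpha5 and alpha-v were abundant and higher in both XEN groups than in KO ES cells. Itga5 (chromosome 15, 103344286 to 103366763) encodes alpha5, which with beta1 forms the main fibronectin receptor. It had 781 and 740.0 CPM in KO XEN cells, 524 and 501 in WT XEN cells, and 52.9, 187 and 179 in KO ES cells. The 3 groups did not overlap, and within KO ES cells the C4 library was the low one. Its log2 fold change was 2.44 ± 0.45 in KO XEN cells over KO ES cells (adjusted p = 0.00162) and 1.87 ± 0.45 in WT XEN cells over KO ES cells (adjusted p = 0.00698). In KO XEN cells over WT XEN cells it was 0.57 ± 0.49 (adjusted p = 0.38), and it passed there when KO ES C4 was left out of the shared fit (0.49, adjusted p = 0.0154). Itgav encodes alpha-v, which binds vitronectin, fibronectin and latent TGF-beta with its various beta partners. It had 304 and 295 CPM in KO XEN cells, 151 and 172 in WT XEN cells, and 53.8, 30.8 and 37.1 in KO ES cells. The groups were again apart, and the gaps exceeded the spread within each group. Itgav was higher in KO XEN cells than in WT XEN cells by 0.89 ± 0.25 (adjusted p = 0.0211), higher in KO XEN cells than in KO ES cells by 2.88 ± 0.23 (adjusted p = 1.84e-05), and higher in WT XEN cells than in KO ES cells by 1.99 ± 0.23 (adjusted p = 0.000168). The call between KO XEN cells and WT XEN cells was lost on leaving out any 1 of those 4 libraries, with values from 0.72 without WT XEN A to 0.98 without WT XEN B (0.87 without KO XEN C4, 0.83 without KO XEN 5-3). Itga8, the alpha8 chain, binds nephronectin and is known from kidney and smooth muscle. It had 13.2 and 17.4 CPM in KO XEN cells, 1.64 and 2.65 in WT XEN cells, and 0.96, 1.15 and 1.8 in KO ES cells. Only the KO XEN libraries stood apart: the log2 fold change was 2.83 ± 0.42 over WT XEN cells (adjusted p = 0.00131) and 3.55 ± 0.37 over KO ES cells (adjusted p = 7.44e-05), while WT XEN cells over KO ES cells gave 0.71 ± 0.37 (adjusted p = 0.124). Itga2b, the platelet alphaIIb chain, reached at most 3.41 CPM; it was called higher in KO XEN cells than in KO ES cells (1.47, adjusted p = 0.00773), a call lost without KO XEN C4 (1.13).

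The shared beta1 chain, per kb of exon the integrin chain with the highest mean level in each group, was highest in KO XEN cells, then WT XEN cells, then KO ES cells. Itgb1 (chromosome 8, 128685654 to 128733200) had 1297 and 986 CPM in KO XEN cells, 581 and 541 in WT XEN cells, and 214, 177 and 198 in KO ES cells. No library of one group reached the range of another. Its log2 fold change was 1.02 ± 0.18 in KO XEN cells over WT XEN cells (adjusted p = 0.00294), 2.54 ± 0.16 in KO XEN cells over KO ES cells (adjusted p = 7.51e-06) and 1.52 ± 0.16 in WT XEN cells over KO ES cells (adjusted p = 0.000127).

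The 4 beta chains that pair with alpha-v did not move together, as beta3, beta5 and beta8 were higher and beta6 was lower in KO XEN cells than in WT XEN cells. Itgb5, the beta5 chain of a vitronectin receptor, had 186 and 241 CPM in KO XEN cells, 50.6 and 40.1 in WT XEN cells, and 26.4, 26.7 and 26.5 in KO ES cells. The groups were far apart for their spread, with a log2 fold change of 2.24 ± 0.19 in KO XEN cells over WT XEN cells (adjusted p = 0.000202), 3.01 ± 0.17 in KO XEN cells over KO ES cells and 0.77 ± 0.17 in WT XEN cells over KO ES cells (adjusted p = 4.08e-06 and 0.00418). Itgb3, the beta3 chain, also the partner of alphaIIb on platelets, had 51.7 and 71.3 CPM in KO XEN cells, 11.2 and 5.47 in WT XEN cells, and 8.93, 5.31 and 4.58 in KO ES cells. WT XEN cells and KO ES cells overlapped, and KO XEN cells stood above both. It was higher in KO XEN cells than in WT XEN cells (2.88 ± 0.44, adjusted p = 0.00151) and than in KO ES cells (3.30 ± 0.39, adjusted p = 0.000134). In WT XEN cells over KO ES cells it was 0.41 ± 0.38 (adjusted p = 0.369), and -0.16 without WT XEN A. Of the other platelet and megakaryocyte markers Pf4, Gp9 and Gp6 were at 0 in KO XEN cells, and the 5 markers summed to at most 4.43 CPM there. Only 1 of these 5 markers was tested. That marker was called higher in KO XEN cells than in WT XEN cells (3.59) and than in KO ES cells (5.95). Itgb6 encodes beta6, an epithelial chain whose pair with alpha-v activates latent TGF-beta. It had 2.47 and 5.26 CPM in KO XEN cells, 12.4 and 14 in WT XEN cells, and 0, 0 and 0.02 in KO ES cells. KO ES cells held 1 Itgb6 count in all 3 libraries together. The count ratio was 590.4 in KO XEN cells over KO ES cells (exact 95% interval 105 to 23430.1) and 1761 in WT XEN cells over KO ES cells (315 to 69610.2), where the intervals cover counting error only. Itgb6 was lower in KO XEN cells than in WT XEN cells by -1.75 ± 0.45 (adjusted p = 0.015), a call that did not hold without KO XEN C4 (-1.33) or without WT XEN B (-1.67), and that was -2.50 without KO XEN 5-3. Itgb8, whose pair with alpha-v also activates latent TGF-beta, had 3.7 and 6.06 CPM in KO XEN cells, 1.32 and 1.27 in WT XEN cells, and 0.12, 0.048 and 0.02 in KO ES cells, and was called higher in each comparison. Its 1.92 in KO XEN cells over WT XEN cells (adjusted p = 0.0208) did not pass without KO XEN 5-3 (1.43), without WT XEN A (1.88) or without WT XEN B (1.89).

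The collagen-binding alpha chains were all at low levels. Itga1, which with beta1 binds basement membrane collagen IV, had 7.41 and 16.1 CPM in KO XEN cells, 7.4 and 4.95 in WT XEN cells, and 1.82, 2.28 and 3.26 in KO ES cells. Both XEN groups lay above KO ES cells (2.27 ± 0.41, adjusted p = 0.00146, in KO XEN cells, and 1.33 ± 0.41, adjusted p = 0.0217, in WT XEN cells), and KO XEN cells over WT XEN cells gave 0.94 ± 0.45 (adjusted p = 0.124), which was called without both C4 libraries (1.39, adjusted p = 0.0341). Without KO XEN 5-3 the first was 1.51, and the second did not pass without WT XEN A (1.04), without KO ES C4 (1.13) or without KO ES 5-3_1 (1.27). Itga11, a receptor for fibrillar collagen on fibroblasts, had 7.77 and 7.81 CPM in KO XEN cells, 1.56 and 0.885 in WT XEN cells, and 0, 0 and 0.0801 in KO ES cells, which is 4 counts in all. It was called higher in KO XEN cells than in WT XEN cells (2.67 ± 0.69, adjusted p = 0.0144), a call lost without WT XEN B (2.31), KO XEN C4 (2.67) or KO XEN 5-3 (2.58). Itga2 had at most 2.05 CPM and Itga10 at most 2.42 CPM in any library. Itga2 was higher than in KO ES cells in both XEN groups (4.32 in KO XEN cells and 5.22 in WT XEN cells). Itga10 was lower than in KO ES cells in both (-1.82 in KO XEN cells and -0.95 in WT XEN cells), and the second of these did not pass on leaving out any 1 of the 7 libraries, with values between -1.03 and -0.89. Of the Itga10 exon bases 33.5% are shared with Gm42957 on the same strand, which makes its counts uncertain. Neither Itga2 nor Itga10 differed past the threshold between KO XEN cells and WT XEN cells.

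Of the alpha4 and alpha9 chains, which bind osteopontin, tenascin-C, VCAM-1 and an alternative segment of fibronectin, alpha9 was the abundant one. Itga9 had 44.1 and 112 CPM in KO XEN cells, 19.7 and 10.1 in WT XEN cells, and 34.2, 32.7 and 29.7 in KO ES cells. KO XEN cells lay above the KO ES libraries and WT XEN cells below them. It was higher in KO XEN cells than in WT XEN cells by 2.39 ± 0.46 (adjusted p = 0.00412), and by 1.47 without KO XEN 5-3, where the call still held. The higher level in KO XEN cells than in KO ES cells (1.28 ± 0.39, adjusted p = 0.0188) rested on that library too, with 0.38 and no call without it, and was not called without KO ES C4 (1.24) or 5-3_2 (1.13) either. The lower level in WT XEN cells than in KO ES cells (-1.11 ± 0.41, adjusted p = 0.046) was lost without WT XEN B (-0.70), without KO ES C4 (-1.08), 5-3_1 (-1.09) or 5-3_2 (-1.18), and with line as a replicate block (-1.06, adjusted p = 0.0512). Itga4 stayed at or below 2.18 CPM; it was higher in both XEN groups than in KO ES cells (3.22 in KO XEN cells and 2.67 in WT XEN cells) and did not pass between KO XEN cells and WT XEN cells (0.54, adjusted p = 0.488). Its WT XEN cells value was 2.04 without WT XEN B and 3.29 without KO ES 5-3_2.

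The leukocyte chains were the class in which KO ES cells held most. Itgb7, the beta7 chain of gut-homing lymphocyte integrins, had 9.37 and 5.05 CPM in KO XEN cells, 0.932 and 0.276 in WT XEN cells, and 34.0, 55.3 and 49.2 in KO ES cells. No libraries of the 3 groups overlapped, with KO ES cells highest and WT XEN cells lowest. It was higher in KO XEN cells than in WT XEN cells by 3.55 ± 0.55 (adjusted p = 0.0016; 4.57 without WT XEN A and 2.91 without WT XEN B). Against KO ES cells it was lower in KO XEN cells by -2.70 ± 0.46 (adjusted p = 0.00108) and lower in WT XEN cells by -6.25 ± 0.57 (adjusted p = 6.06e-05; -7.33 without WT XEN A and -5.62 without WT XEN B). Itgal, the alphaL chain of LFA-1, had 6.22, 9.44 and 8.27 CPM in KO ES cells and at most 0.356 CPM in the 4 XEN libraries. Itgae and Itgam reached at most 2.45 CPM and were, like Itgal, lower in both XEN groups than in KO ES cells. Of the Itgam exon bases 68.7% are shared with Gm49368 on the same strand, so that its counts are uncertain. Itgb2, the beta2 partner of alphaL and alphaM, moved otherwise, with 2.9 and 1.6 CPM in KO XEN cells, 0.247 and 0.111 in WT XEN cells, and 0.456, 0.48 and 0.741 in KO ES cells. Itgb2 was higher in KO XEN cells than in WT XEN cells (3.61, adjusted p = 0.00264; 4.20 without WT XEN A). Against KO ES cells it was higher in KO XEN cells (1.98, adjusted p = 0.00747; 1.51 and not called without KO XEN C4) and lower in WT XEN cells (-1.63, adjusted p = 0.0382), which was not called without WT XEN B (-1.17), KO ES 5-3_1 (-1.73) or KO ES 5-3_2 (-1.39). Itgae was lower in KO XEN cells than in WT XEN cells (-2.45, adjusted p = 0.0167), a call not kept without WT XEN B (-1.78), KO XEN C4 (-2.34) or KO XEN 5-3 (-2.76). It rests on few counts, 1 and 3 in KO XEN cells against 11 and 24 in WT XEN cells. Itgad, Itgax and Itgb2l had at most 1 count in any library and were not tested. Of 9 leukocyte markers, 6 lay below 1 CPM in each group and Ptprc and Spi1 were at 0 in KO XEN cells. The 9 summed to between 44.9 and 73.7 CPM in KO XEN cells, 39.0 and 55.0 in WT XEN cells, and 85.7 and 147 in KO ES cells, where Laptm5 alone had between 67.6 and 119.7 CPM.

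Among the syndecans Sdc1, Sdc2 and Sdc3 were higher and Sdc4 was lower in KO XEN cells than in WT XEN cells. Sdc3 (chromosome 4, 130792537 to 130826319), whose promoter is the second sequence above, encodes the long syndecan known from nerve and muscle. It had 351 and 513 CPM in KO XEN cells, 41.4 and 31.0 in WT XEN cells, and 4.8, 5.0 and 4.08 in KO ES cells. Each group was separated from the next by far more than its own spread. Its log2 fold change was 3.58 ± 0.25 in KO XEN cells over WT XEN cells (adjusted p = 0.000151), 6.55 ± 0.24 in KO XEN cells over KO ES cells (adjusted p = 1.29e-06) and 2.97 ± 0.22 in WT XEN cells over KO ES cells (adjusted p = 2.11e-05). Sdc2, the syndecan of fibroblasts and other mesenchymal cells, had 137 and 193 CPM in KO XEN cells, 18.4 and 10.6 in WT XEN cells, and 3.96, 5.36 and 6.06 in KO ES cells. It showed the same order, with 3.51 ± 0.34 in KO XEN cells over WT XEN cells (adjusted p = 0.000282), 5.01 ± 0.31 in KO XEN cells over KO ES cells and 1.49 ± 0.29 in WT XEN cells over KO ES cells. Sdc1, the syndecan of epithelia and plasma cells, had 194 and 137 CPM in KO XEN cells, 24.5 and 11.5 in WT XEN cells, and 23.0, 33.5 and 30.1 in KO ES cells. WT XEN cells overlapped with KO ES cells, and KO XEN cells stood above both, by 3.20 ± 0.38 over WT XEN cells (adjusted p = 0.000561) and 2.52 ± 0.32 over KO ES cells (adjusted p = 0.00022). WT XEN cells over KO ES cells gave -0.68 ± 0.33 (adjusted p = 0.107), and it was called without WT XEN A (-1.29). Sdc4, the widely expressed syndecan of focal adhesions, ran the other way. It had 106 and 120.3 CPM in KO XEN cells, 160.0 and 225 in WT XEN cells, and 49.8, 75.0 and 67.9 in KO ES cells. KO XEN cells lay between WT XEN cells and KO ES cells without overlap. Sdc4 was lower in KO XEN cells than in WT XEN cells by -0.77 ± 0.24 (adjusted p = 0.0318), higher in KO XEN cells than in KO ES cells by 0.82 ± 0.22 (adjusted p = 0.00995), and higher in WT XEN cells than in KO ES cells by 1.58 ± 0.22 (adjusted p = 0.000423). The lower level did not pass without KO XEN C4 (-0.68), KO XEN 5-3 (-0.95) or WT XEN B (-0.51), and the gain over KO ES cells did not pass without KO XEN 5-3 (0.64).

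The glypicans split between 2 neighbouring genes of the X chromosome. Gpc4 (52053021 to 52165252, minus strand) had 808 and 685 CPM in KO XEN cells, 142 and 48.2 in WT XEN cells, and 35.9, 72.2 and 77.3 in KO ES cells. WT XEN cells and KO ES cells overlapped, while both KO XEN libraries stood above all others. Gpc4 was higher in KO XEN cells than in WT XEN cells by 2.97 ± 0.54 (adjusted p = 0.00329; 3.87 without WT XEN A and 2.38 without WT XEN B) and than in KO ES cells by 3.60 ± 0.47 (adjusted p = 0.000264). In WT XEN cells over KO ES cells it gave 0.63 ± 0.46 (adjusted p = 0.258), which turned to -0.32 without WT XEN A and was called at 1.21 without WT XEN B. Gpc3 (52272426 to 52613950, minus strand), whose human counterpart is mutated in an overgrowth syndrome, had 335 and 468 CPM in KO XEN cells, 536 and 371 in WT XEN cells, and 69.3, 30.0 and 26.5 in KO ES cells. The XEN groups overlapped and both lay above KO ES cells, by 3.26 ± 0.42 in KO XEN cells (adjusted p = 0.000227) and 3.43 ± 0.42 in WT XEN cells (adjusted p = 0.000251). KO XEN cells over WT XEN cells gave -0.17 ± 0.45 (adjusted p = 0.781). Per kilobase of exon, Gpc4 stood at 2.45 and 1.49 times Gpc3 in KO XEN cells, at 0.27 and 0.132 times in WT XEN cells, and at 0.525, 2.44 and 2.96 times in KO ES cells. The ratio was above 1 in both KO XEN libraries and below 1 in both WT XEN libraries, and within KO ES cells line C4 fell on the other side from line 5-3.

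Of the remaining glypicans Gpc6 was called as Gpc3 was, and Gpc1 and Gpc2 were higher in each comparison. Gpc6 had 86.0 and 110.0 CPM in KO XEN cells, 86.6 and 132 in WT XEN cells, and 0.528, 0.624 and 0.56 in KO ES cells. The XEN groups overlapped, and both were higher than KO ES cells, by 7.42 ± 0.26 in KO XEN cells (adjusted p = 1.11e-06) and 7.57 ± 0.26 in WT XEN cells (adjusted p = 2.34e-06). Its neighbour on chromosome 14, Gpc5, had at most 4 counts in any library and was not tested. Gpc1, a glypican known as a co-receptor for FGF2, had 93.2 and 156 CPM in KO XEN cells, 34.1 and 16.6 in WT XEN cells, and 10.6, 12.2 and 10.5 in KO ES cells. The groups did not overlap, and Gpc1 was higher in KO XEN cells than in WT XEN cells by 2.30 ± 0.37 (adjusted p = 0.00185), in KO XEN cells than in KO ES cells by 3.49 ± 0.33, and in WT XEN cells than in KO ES cells by 1.19 ± 0.32 (adjusted p = 0.012), where the last did not pass without WT XEN A (0.62). Gpc2, a glypican of the developing nervous system, had 26.3 and 36.0 CPM in KO XEN cells, 11.5 and 11.6 in WT XEN cells, and 9.12, 5.67 and 5.86 in KO ES cells. It was higher in KO XEN cells than in WT XEN cells by 1.43 ± 0.30 (adjusted p = 0.00583), which did not pass without KO XEN 5-3 (1.10). It was higher in KO XEN cells than in KO ES cells by 2.18 ± 0.27 (adjusted p = 0.000169). WT XEN cells over KO ES cells gave 0.75 ± 0.27 (adjusted p = 0.0378), lost without WT XEN A (0.79), WT XEN B (0.75), KO ES 5-3_1 (0.63) or KO ES 5-3_2 (0.63). Of the exon bases of Gpc2, 55.6% are shared with Gm43720 on the same strand, and of those of Gpc1 18.9% with Ankmy1 on the other, so that these counts are uncertain.

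Itgb3bp had 2.9 and 3.66 CPM in KO XEN cells, 6.11 and 9.29 in WT XEN cells, and 11.4, 10.7 and 13.0 in KO ES cells. The groups did not overlap, and KO ES cells was highest. It was lower in KO XEN cells than in WT XEN cells by -1.22 ± 0.30 (adjusted p = 0.0122), not called without KO XEN C4 (-1.07) or WT XEN B (-0.89), and lower in KO XEN cells than in KO ES cells by -1.82 ± 0.29.

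To compare receptors with each other, CPM was divided by the exon length of each gene. On this scale the summed alpha chain level was 289 ± 32.9 CPM per kb in KO XEN cells, 179 ± 8.93 in WT XEN cells and 71.9 ± 16.8 in KO ES cells. RGD-binding chains made up 64.2% ± 5.19 of it in KO XEN cells, 66.8% ± 2.41 in WT XEN cells and 43.4% ± 11.2 in KO ES cells. Laminin-binding chains made up 31.2% ± 7.99, 31.4% ± 1.87 and 46.7% ± 8.41 in the same groups. The shares of these 2 classes in KO XEN cells and WT XEN cells differed by less than the SD within KO XEN cells. Collagen-binding chains held 0.838% ± 0.206 in KO XEN cells (0.692% and 0.983%) and 0.556% ± 0.134 in WT XEN cells (0.651% and 0.461%). Without length scaling these means were 1.21% and 0.920%. Leukocyte chains held 0.0342% ± 0.00461 in KO XEN cells and 0.108% ± 0.00255 in WT XEN cells. Itgae, Itgal and Itgam had 1, 2 and 3 counts in KO XEN C4 and 3, 9 and 5 in KO XEN 5-3. An SD over 2 libraries does not cover counting error at such counts, so that the leukocyte difference is uncertain. The alpha chain sum was higher in both KO XEN libraries than in both WT XEN libraries. The KO ES cells shares depended on the line: RGD-binding chains held 30.6% in C4 and 50.7% and 49.0% in 5-3.

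Beta1 made up 77.5% ± 5.44 of the summed beta chain level in KO XEN cells, 88.7% ± 1.40 in WT XEN cells and 62.9% ± 6.31 in KO ES cells. The beta chains that pair with alpha-v held 20.3% ± 6.33, 10.4% ± 1.01 and 11.2% ± 0.688 in the same groups. Leukocyte beta chains held 0.912% ± 0.278 in KO XEN cells, 0.175% ± 0.117 in WT XEN cells and 22.0% ± 5.07 in KO ES cells. The alpha chains that can pair with beta1 summed to 0.979 and 1.10 times the Itgb1 level in KO XEN cells, 1.30 and 1.30 times in WT XEN cells, and 0.962, 1.82 and 1.65 times in KO ES cells. On this scale the 2 sides were of similar size in KO XEN cells, and alpha chains exceeded beta1 in both WT XEN libraries and in line 5-3 of KO ES cells. The ratios depend on the gene length used, and the alpha sum includes alpha-v, which also pairs with other beta chains.

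Syndecan make-up separated KO XEN cells from the other groups. Sdc4 held 21.9% and 21.1% of the syndecan sum in KO XEN cells, 77.2% and 88.8% in WT XEN cells, and 71.1%, 72.6% and 72.1% in KO ES cells. The sum itself was 207 ± 24.0 CPM per kb in KO XEN cells, 90.5 ± 12.9 in WT XEN cells and 35.0 ± 6.75 in KO ES cells. In KO XEN cells Sdc3 was the largest part, with 30.9% and 38.3%, against 8.49% and 5.20% in WT XEN cells and 1.84% to 2.91% in KO ES cells. The glypican sum was 478 ± 15.2 CPM per kb in KO XEN cells, 229 ± 65.9 in WT XEN cells and 42.8 ± 0.736 in KO ES cells. Gpc4 held 59.1% ± 8.72 of it in KO XEN cells, 14.7% ± 6.74 in WT XEN cells and 54.7% ± 20.6 in KO ES cells, and Gpc3 held 31.2% ± 6.34, 73.9% ± 2.33 and 36.3% ± 19.9. These shares describe transcripts and were not tested.

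**Figure D3:**
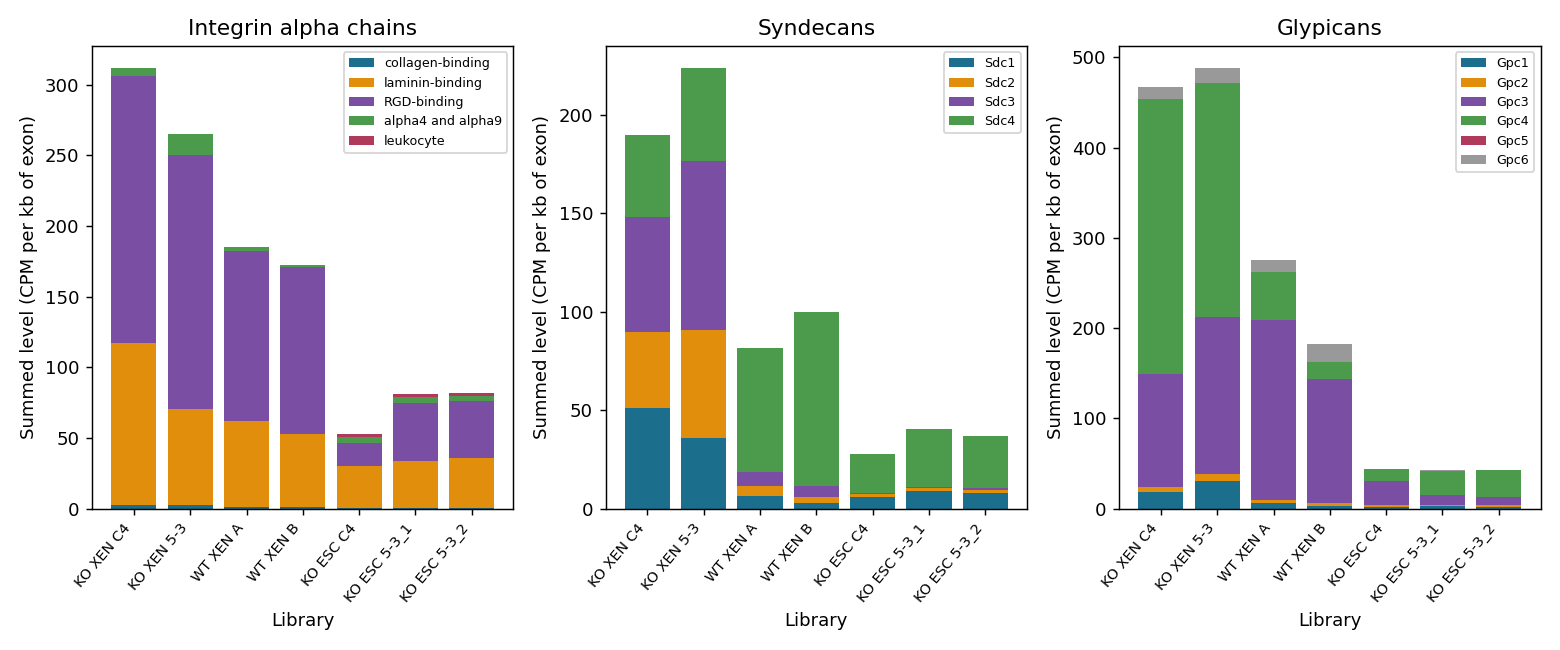
Summed level of integrin alpha chains by ligand class (left), of the 4 syndecans (middle) and of the 6 glypicans (right) in each library, in CPM per kb of exon on axes that start at 0. Each bar is 1 library, with KO XEN cells on the left, WT XEN cells in the middle and KO ES cells on the right of each panel. Sdc4 makes up 21.1% to 21.9% of the syndecan bars in KO XEN cells and 71.1% to 88.8% in the other libraries.

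The order of levels per kb also differed between the groups. In KO XEN cells the highest were Gpc4 (282 ± 32.7 CPM per kb), Itgb1 (279.7 ± 53.9), Itga5 (154 ± 5.80), Gpc3 (149 ± 35.0), Dag1 (86.0 ± 3.43) and Sdc3 (72.1 ± 19.2). Gpc4 and Itgb1, like Itga5 and Gpc3, differed by less than their SD. In WT XEN cells the first were Gpc3 (169 ± 43.4), Itgb1 (137 ± 6.84), Itga5 (104 ± 3.19), Sdc4 (75.6 ± 18.1) and Dag1 (47.2 ± 3.89), of which the first 2 did not differ beyond their spread. In KO ES cells the first were Itgb1 (48.1 ± 4.50), Itga5 (28.3 ± 15.3), Dag1 (28.3 ± 2.34), Sdc4 (25.2 ± 5.10), Gpc4 (23.3 ± 8.52) and Itga6 (22.3 ± 2.70), where after Itgb1 each gene differed from the next by less than the larger SD. Among the 36 tested genes KO XEN cells had the highest mean in 24, WT XEN cells in 5 (Itga2, Itgb6, Sdc4, Gpc3 and Gpc6) and KO ES cells in 7. The matching shares over all genes were not counted, so that no excess among the receptor genes can be read from these counts.

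Taken over the 3 comparisons, 10 genes were called higher in each: Itga11, Itgav, Itgb1, Itgb5, Itgb8, Dag1, Sdc2, Sdc3, Gpc1 and Gpc2. Another 7 (Itga1, Itga2, Itga3, Itga4, Itga5, Gpc3 and Gpc6) were higher in both XEN groups than in KO ES cells and not called between KO XEN cells and WT XEN cells. Itga8, Itgb3, Sdc1 and Gpc4 were higher in KO XEN cells than in either other group and not called between WT XEN cells and KO ES cells. Itga9, Itgb2 and Bcam were higher in KO XEN cells and lower in WT XEN cells than in KO ES cells. Itgb6 and Sdc4 were higher in both XEN groups than in KO ES cells and lower in KO XEN cells than in WT XEN cells. The comparisons share libraries, so that these patterns are descriptions. Taken singly, 22.3% of all genes were called higher in KO XEN over WT XEN cells, 34.8% in KO XEN over KO ES cells and 32.2% in WT XEN over KO ES cells. The share of all genes with each pattern was not counted, so that no excess can be read from these numbers. Of the 10 genes, Itga11, Itgav, Itgb8, Gpc1 and Gpc2 lost a call on leaving out a single library, as did genes of other patterns.

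**Figure D4:**
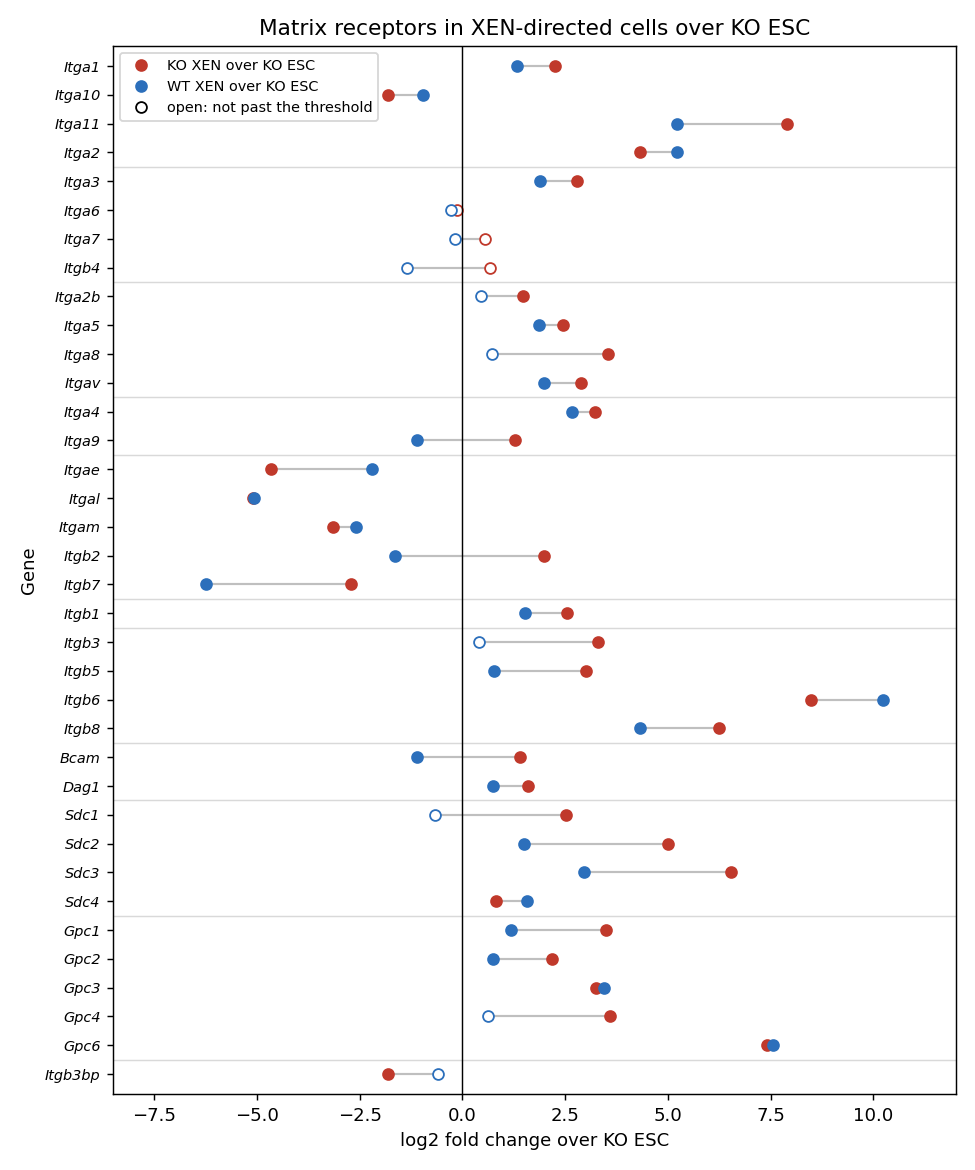
Log2 fold change over KO ES cells of each tested receptor gene (x axis), red for KO XEN cells and blue for WT XEN cells, joined by a line; filled points passed the adjusted p threshold and open points did not. Both groups are set against the same 3 KO ES libraries, and the points of Itgb6 rest on 1 count in KO ES cells. Red lies well to the right of blue for Sdc1, Sdc2, Sdc3 and Gpc4, and the points nearly meet for Gpc3, Gpc6 and Itgal.

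Whether lines C4 and 5-3 changed differently on differentiation was tested as an interaction with 2 residual degrees of freedom. Of its 4 arms KO XEN C4, KO XEN 5-3 and KO ES C4 hold 1 library each, so that the spread comes from the WT XEN pair and the 5-3 pair of KO ES cells alone, and its counts of calls do not show whether the lines differ. It called 0 of 18426 genes and 0 of the 36 receptor genes, while 1844 genes and 6 receptor genes (Itga3, Itgb4, Itga5, Itgb8, Gpc2 and Gpc3) had an unadjusted p below 0.05 in the same edgeR fit. Itga5 had the smallest unadjusted p, 0.000388 (adjusted p = 0.256), with a log2 difference of 1.87 ± 0.23. Its level in KO XEN cells was 781 CPM in C4 and 740.0 in 5-3, and in KO ES cells 52.9 CPM in C4 and 187 and 179 in 5-3. Comparing C4 with 5-3 within KO ES cells or within KO XEN cells also involves arms of 1 library, so that counts of calls are not given. For Itga5 the log2 difference of C4 from 5-3 was -1.79 within KO ES cells and 0.077 within KO XEN cells.

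The genes that work with these receptors were taken as 6 lists and described by their counts in KO XEN cells against WT XEN cells, beside 22.3% higher, 23.9% lower and a median log2 fold change of 0 for all genes. Of 32 genes of the integrin adhesion machinery 23 were higher, 3 lower (Cd9, Tln2 and Itgb1bp1) and 6 not called, with a median of 1.44. Vcl, vinculin, which links talin to actin, had 1258 and 1128 CPM in KO XEN cells against 335 and 246 in WT XEN cells (2.04 ± 0.19, adjusted p = 0.000266). Cd9, a tetraspanin that associates with integrins, had 31.0 and 38.9 CPM in KO XEN cells against 312 and 344 in WT XEN cells (-3.23 ± 0.21, adjusted p = 0.000131). Most of the machinery list was thus called in the direction of Itgb1. Its summed level was 18516 to 18553 CPM in KO XEN cells and 5622 to 6804 in WT XEN cells.

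The matrix ligands held genes called in both directions. Of 14 laminin, nidogen and perlecan genes 4 were higher, 4 lower and 6 not called (median 0.16). The 3 chains of laminin-111 (Lama1, Lamb1 and Lamc1) all passed as lower; Lama1 had 116 and 300.0 CPM in KO XEN cells against 9071 and 16467 in WT XEN cells (-5.94 ± 0.60, adjusted p = 0.000314). Lama5, the alpha chain of laminin-511, was higher, with 1591 and 1259.7 CPM in KO XEN cells against 427 and 321 in WT XEN cells (1.93 ± 0.20, adjusted p = 0.000316). Of the laminin receptors, Bcam, Itgb4 and Dag1 were called higher in this comparison, and Itga3, Itga6 and Itga7 were not called. Of 12 collagen genes 6 were higher and 3 lower (median 1.91): Col1a1 had 1469 and 2119 CPM in KO XEN cells against 169.5 and 42.2 in WT XEN cells (4.08 ± 0.67), and Col4a1 1119.5 and 1493 CPM in KO XEN cells against 10420.1 and 15895 in WT XEN cells (-3.33 ± 0.61). Lama1, Lamb1 and Col4a1 also stand in the parietal endoderm marker list, and Col1a1 in the mesenchyme list.

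Of 14 tested ligands of RGD, alpha4 and alpha9 integrins 11 were higher, 2 lower and 1 not called (median 1.60). Tnc, tenascin-C, a ligand of alpha9, had 1302 and 1446 CPM in KO XEN cells against 298 and 243 in WT XEN cells (2.35 ± 0.22, adjusted p = 0.000273), and Npnt, nephronectin, the ligand of alpha8, 196 and 111 CPM in KO XEN cells against 25.5 and 20.8 in WT XEN cells (2.73 ± 0.28, adjusted p = 0.000333). Spp1, osteopontin, was lower, with 9.8 and 8.15 CPM in KO XEN cells against 200.1 and 191 in WT XEN cells (-4.45 ± 0.21, adjusted p = 5.75e-05). Of 25 heparan sulfate genes 10 were higher, 7 lower and 8 not called (median 0.29). Ndst1, which adds the first sulfates, had 298 and 308 CPM in KO XEN cells against 48.8 and 66.6 in WT XEN cells (2.39 ± 0.18, adjusted p = 0.000165), and Sdcbp, syntenin, which binds the cytoplasmic tail of syndecans, 132 and 172 CPM in KO XEN cells against 347 and 373 in WT XEN cells (-1.24 ± 0.18, adjusted p = 0.00108). Of 16 genes of dystroglycan glycosylation and its complex 5 were higher, 2 lower and 9 not called (median 0.31). Large2, a glycosyltransferase that extends the laminin-binding sugar, was lower (-2.66 ± 0.29, adjusted p = 0.000409), and Sspn, sarcospan, was higher (2.07 ± 0.41, adjusted p = 0.00499).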

How the data were processed

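The authors deposited raw counts of reads per Ensembl gene for 7 poly(A) libraries, not normalized. Per the submitters' processing notes, STAR 2.4.2a and featureCounts 1.4.5-p1 were used with genome build mm10. The labels call the libraries reverse-stranded. The annotation release, the strand setting of the counting and any filters are not given in the sources used here, so that counts of genes with shared exons are uncertain. Symbols, positions and exon lengths came from GENCODE M21; 1081 IDs without a symbol there held 0.136% of counts.

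Counts were tested with edgeR 4.0.16 (R 4.3.3, limma 3.58.1) by its quasi-likelihood method, after TMM scaling and filterByExpr by group, which kept 18426 genes and set 25203 aside. All 7 libraries entered 1 fit with 3 groups and 4 residual degrees of freedom (prior, median 3.92), and the biological coefficient of variation was 0.268. A gene was called where its p, adjusted by Benjamini-Hochberg over all genes kept, lay below 0.05. CPM uses TMM-scaled library sizes, and 3 counts in a library correspond to 0.0600 to 0.218 CPM. Alternatives were DESeq2 1.42.0, its size factors, no filter, only the compared groups, line as a replicate block, and fits without single libraries or without both C4 libraries. The pairing for the block rests on the labelled line; deviations of the lines correlated across genes at 0.0555. The code was tested on simulated data. P-values measure the spread between libraries, which the labels do not describe as separate cultures, and both 5-3 libraries of the KO ES cells come from 1 line. The genes and lists were chosen with earlier results of these data known. Genes whose mean reached 10 CPM in a group are given by library and the others by range; single lower genes with a pattern of their own were picked after their values were seen. From each list of partner genes, named genes come from the 4 with the smallest adjusted p between KO XEN and WT XEN cells and up to 2 that go against the list. Of the ligand list, 2 older names (Cyr61 and Ctgf) had no match and were not used.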

Additional observations from a re-analysis of the deposited data

How the results depend on the processing

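With each single library left out, the number of receptor genes called higher in KO XEN than in WT XEN cells ran from 15 to 21 and the number called lower from 0 to 4, and it was 1 lower without both C4 libraries. For KO XEN over KO ES cells these ranges were 24 to 27 and 6 to 6, and for WT XEN over KO ES cells 16 to 19 and 5 to 8. The cause was not tested, beyond that such fits hold fewer libraries, and a lone library is then assumed to vary like the other groups. With line as a replicate block the medians of the receptor genes were 0.99, 2.51 and 0.78 in the 3 comparisons, and 1 call changed, Itga9 in WT XEN over KO ES cells (-1.06). Line lies within genotype, so that the block places the wild type midway. The direction turned for genes that had not passed. In KO XEN over WT XEN cells these were, without WT XEN A, Itga6 (-0.17), Itgal (0.96), Itgam (0.29) and Gpc3 (0.046), without WT XEN B, Gpc6 (0.17), and both without KO XEN C4 and without both C4 libraries, Itga6 (-0.38), Itgal (0.24), Gpc3 (0.047) and Gpc6 (0.013). The widest values of these genes on leaving out a library were 0.45 for Itga6, -0.76 for Itgal, -1.10 for Itgam, -0.52 for Gpc3 and -0.50 for Gpc6. In KO XEN over KO ES cells they were, without KO XEN C4, Itga7 (-0.094) and Itgb4 (-0.082), without both C4 libraries Itgb4 (-0.43), and without KO XEN 5-3 Itga6 (0.19), with widest values of 0.97, 1.09 and -0.65 for Itga7, Itgb4 and Itga6. In WT XEN over KO ES cells they were Itga7 without KO ES C4 (0.030) and without both C4 libraries (0.045), and Itgb3 (-0.16) and Gpc4 (-0.32) without WT XEN A, with widest values of -0.29, 0.85 and 1.21. Itgb4 in WT XEN over KO ES cells (-1.36) passed with DESeq2 (-1.38), with no filter (-1.35), without KO ES C4 (-1.71) and without both C4 libraries (-1.70), and Itgb3bp (-0.60) with DESeq2 (-0.63) and without WT XEN B (-0.93). Leaving out the filter moved the median of all genes in KO XEN over KO ES cells to -0.35, and the fit without KO XEN 5-3 moved it to -0.22. With the longest transcript as gene length, laminin-binding chains held 36.7% of the alpha chain sum in WT XEN cells and 57.3% in KO ES cells. Depth limits the genes with few counts, and KO XEN C4 is the shallowest library.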

Other observations

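The remaining marker lists gave the following values between KO XEN and WT XEN cells. Of 8 ES cell markers 6 were lower and 0 higher, and they summed to between 57.4 and 71.5 CPM in KO XEN cells, 356 and 394 in WT XEN cells, and 3795 and 3822 in KO ES cells. Of 6 neuroectoderm markers 4 were higher and 0 lower, with sums between 458 and 530.2 CPM in KO XEN cells, 58.1 and 87.7 in WT XEN cells, and 84.7 and 108 in KO ES cells. Of 5 endothelial markers 1 was higher and 3 lower, with sums between 38.0 and 45.9 CPM in KO XEN cells, 29.9 and 32.9 in WT XEN cells, and 96.5 and 138 in KO ES cells. Of 4 trophoblast markers 1 was higher and 1 lower, with sums between 40.9 and 97.6 CPM in KO XEN cells, 11.5 and 22.5 in WT XEN cells, and 36.7 and 43.0 in KO ES cells.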
